A study of Mus musculus with 6 samples.

Results

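Neonatal cardiomyocytes, the contracting muscle cells of the newborn heart, were compared with cardiac fibroblasts, the matrix-producing cells, from hearts of the same age. The comparison rests on 4 of the 6 one-colour Affymetrix arrays of the series, 2 for each cell type, and covers 18193 genes. Arrays were assigned by their source name, because the titles of both neonatal arrays numbered 1 carry the opposite cell type. All neonatal cells came from C57BL/6J mice of both sexes at postnatal day 1 and were dissociated and then separated on Percoll, a density medium. The remaining 2 arrays hold cardiomyocytes of C57BL/6J males at 8 weeks of age, released by Langendorff perfusion. They served only for the estimate of spread, in the choice of 1 probe set per gene and as values set alongside. No transgene, deletion or drug is named for any group. The labels mention digestion with trypsin and collagenase, and cells expanded on a dish and examined for leftover cardiomyocytes with TMRM, a mitochondrial dye, whereas the design text calls the cells fresh, so whether the fibroblasts had been cultured cannot be told from these sources. Separate litters or preparations are not stated for the arrays of a group, and the p-values therefore reflect only how far these arrays spread, which may be technical.

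Cardiomyocytes are built around the sarcomere, in which myosin thick filaments pull on actin thin filaments anchored at the Z-disc. Calcium released from the sarcoplasmic reticulum starts each contraction, ion channels shape the action potential that triggers it, and mitochondria supply the ATP. Cardiac fibroblasts lay down and remodel the collagen-rich matrix between the muscle cells, and they descend largely from the epicardium, where the transcription factor gene Tcf21 is needed for their formation. Preparations of heart cells can also hold macrophages, endothelial cells, pericytes, smooth muscle and epicardial cells.

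All values below are log2 RMA values, on which 1 unit is a 2-fold difference, and differences are cardiomyocytes minus fibroblasts. The labelled cell types were first set against their markers. Txlnb, a muscle-enriched taxilin, measured 10.15 and 10.27 on the cardiomyocyte arrays, and 3.76 and 5.35 on the fibroblast arrays. Smyd1, a methyltransferase of sarcomere assembly, measured 10.57 and 10.65 against 5.03 and 6.69, and Kcnj3, a subunit of the acetylcholine-gated potassium channel, 8.97 and 8.69 against 3.21 and 4.30. Tcf21 ran the other way, at 7.37 and 7.84 against 12.31 and 12.09. All 4 genes lay on the side of the source names on every array. They were markers given for this comparison and are among its called genes, so they are no independent check of the labels.

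The arrays of a group were not equal. The median of 12 thick filament genes was 13.49 and 12.51 on the cardiomyocyte arrays, and 6.76 on fibroblast array 1 against 9.46 on fibroblast array 2. The median of 34 macrophage and monocyte genes was 10.85 on fibroblast array 1 and 8.35 on fibroblast array 2, against 6.43 and 5.37 on the cardiomyocyte arrays. Across genes, which are not independent replicates, the cardiomyocyte and fibroblast arrays numbered 2 correlated at 0.958 and those numbered 1 at 0.879, while the correlation within a group was 0.957 and 0.963. More than 1 log2 unit separated 21.6% of genes between the arrays numbered 1 and 9.72% between those numbered 2. Within a cell type the share was 11.1% between the cardiomyocyte arrays and 9.64% between the fibroblast arrays. The arrays numbered 2 thus differed about as often as arrays of 1 cell type. In bulk samples such as these, fewer cells of a type and less RNA per cell cannot be told apart.

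Limma called 149 of 18193 genes at an adjusted p under 0.05 (0.819%). Of these, 123 were higher in cardiomyocytes (0.676% of genes) and 26 were lower (0.143%), with adjusted p between 0.0424 and 0.0492. By limma 2957 of all 18193 genes had unadjusted p under 0.05, 1628 higher and 1329 lower in cardiomyocytes. The unadjusted counts of the lists below are to be read beside that share. With the replicate number as a block limma called 0 genes, with 3678 at unadjusted p under 0.05 and a smallest adjusted p of 0.0537. Called genes differed by a median of 2.58 log2 units among the increases and 2.76 in size among the decreases. Each called gene also had both arrays of one cell type at least 2-fold above both arrays of the other. That separation, given here as a description without a test, held for 612 genes in favour of cardiomyocytes (3.36%) and 397 in favour of fibroblasts (2.18%), together 5.55% of all genes. The counts of list genes at least 2-fold apart are to be read beside these shares. Counts by direction are to be read beside the 47.4% of all genes with the higher mean in cardiomyocytes. In 510 of the 612 genes fibroblast array 2 lay above fibroblast array 1, and in 545 of them the arrays numbered 1 differed more than those numbered 2. Of the 397 genes on the fibroblast side the corresponding counts were 155 and 314. These counts were not taken over all genes. The median difference of the 612 genes was 2.68 between the arrays numbered 1 and 1.81 between those numbered 2, while for the 123 called genes it was 2.78 and 2.35. A gene that misses the threshold is not thereby shown to be unchanged. For the lists below, calls after leaving out 1 array are given only for the arrays numbered 2, whose omission raised the total. Such a fit leaves 1 array in a group, and its counts lend a list no support. The 0 calls of the other omissions, given next, hold for every list. Without cardiomyocyte array 1, fibroblast array 1 or either adult array, limma called 0 genes, with 1909, 1964 and 2532 at unadjusted p under 0.05. It called 437 without cardiomyocyte array 2 and 423 without fibroblast array 2.

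**Figure D1:**
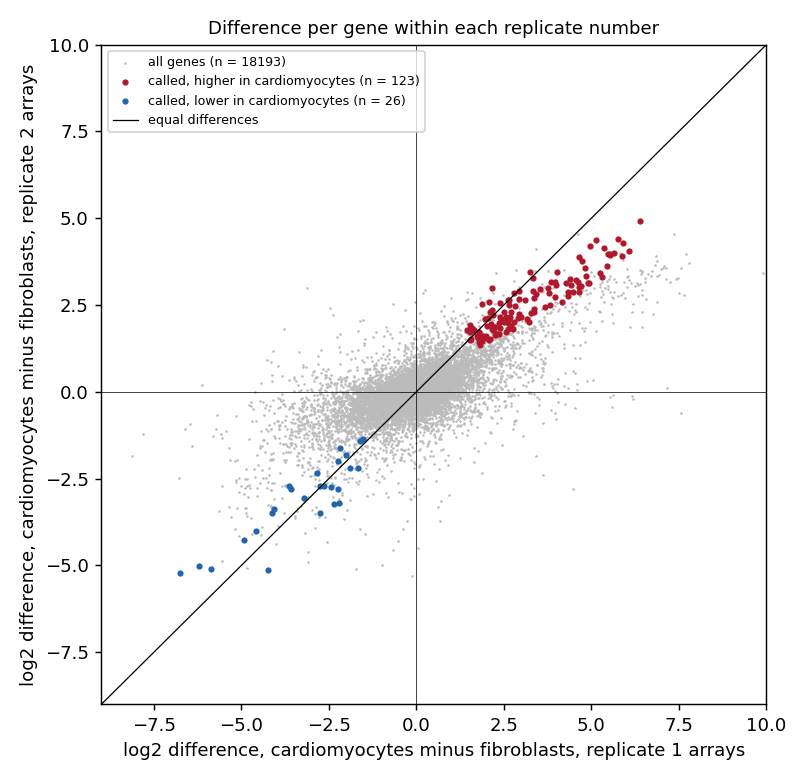
Each point is 1 of 18193 genes, with its log2 difference (cardiomyocytes minus fibroblasts) between the replicate 1 arrays on the x axis and between the replicate 2 arrays on the y axis; coloured points are the 123 genes called higher (red) and the 26 called lower (blue) in cardiomyocytes by limma, and the line marks equal differences. More genes exceeded 1 log2 unit in size on the x axis (21.6%) than on the y axis (9.72%).

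Genes for building and turning over the sarcomere were higher in cardiomyocytes, several of them by limma's test. Of 19 measured genes for sarcomere assembly, kelch proteins and muscle ubiquitin ligases, 7 rose, all 19 had the higher mean in cardiomyocytes, and 18 were at least 2-fold apart on every array. The median difference of this list was 3.43, beside −0.02 over all genes. Klhl41, a kelch protein that stabilises thin filament proteins, measured 9.13 and 8.14 in cardiomyocytes and 3.23 and 3.84 in fibroblasts. Unc45b, a chaperone that folds myosin, measured 11.69 and 11.20 against 6.44 and 7.77. Rnf207, a RING finger protein of heart muscle, measured 10.98 and 10.42 against 4.91 and 6.36. For each of these genes the higher fibroblast value came from array 2 and lay below both cardiomyocyte values. Asb2, which directs a ubiquitin ligase to muscle proteins, rose by 4.20 (SE 0.33), Fbxo32, the ubiquitin ligase subunit atrogin-1, by 2.47 (SE 0.25), and Speg, a kinase of the junctional membrane, by 2.34 (SE 0.22). Without cardiomyocyte array 2 the calls in this list numbered 11, and without fibroblast array 2 they numbered 8.

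The structural filaments had larger median differences and fewer calls. Among 12 thick filament genes the median difference was 4.41, with 11 genes at least 2-fold apart on every array, but 0 were called by limma and 9 had unadjusted p under 0.05. The atrial and ventricular myosin gene Myh6 measured 14.44 and 14.33 in cardiomyocytes, 9.47 on fibroblast array 1 and 12.31 on fibroblast array 2. Without fibroblast array 2, 7 thick filament genes were called. Of 14 thin filament genes 3 rose, with a median of 4.06: Lmod3, a leiomodin that nucleates actin filaments (by 4.75), Tmod1, which caps their pointed ends (by 4.75), and Tnnt1, the slow skeletal troponin T (by 3.89). Tmod1 measured 12.11 and 11.88 against 6.76 and 7.74. Of 21 Z-disc and costamere genes 3 rose (median 3.61), namely Xirp1, an actin-binding protein, Nrap, a scaffold of growing myofibrils, and Des, which encodes the intermediate filament desmin. Des measured 11.44 and 10.70 in cardiomyocytes and 7.90 and 7.74 in fibroblasts, a pair on which fibroblast array 2 was not the higher one. Without fibroblast array 2, 11 thin filament and 12 Z-disc genes were called. Myh8, the perinatal skeletal myosin, is in none of these lists and was chosen after its values were seen. It rose by 2.26, from 4.05 and 4.06 in fibroblasts to 6.42 and 6.21 in cardiomyocytes, and measured 4.08 and 4.10 on the adult arrays.

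Calcium handling genes had the higher mean in cardiomyocytes in most members, with few called. Of 16 sarcoplasmic reticulum genes 14 had the higher mean, 11 were at least 2-fold apart towards cardiomyocytes and 3 were called (median 3.94). By limma 13 of them were higher and 1 lower at unadjusted p under 0.05. Casq1, the skeletal form of the calcium store protein calsequestrin, measured 10.56 and 11.08 in cardiomyocytes, 5.42 and 6.71 in fibroblasts, and 7.25 and 6.71 in adult cardiomyocytes. Cmya5, which encodes myospryn, rose by 4.73 and Hrc, a calcium-binding protein of the reticulum lumen, by 3.16. Cardiac calsequestrin, Casq2, measured 12.65 and 12.09 against 6.27 and 8.99 and was not called (limma adjusted p = 0.0846). The ryanodine receptor gene Ryr2, at 11.87 and 11.22 against 4.87 and 7.67, was not called either (limma adjusted p = 0.0759). Of 11 calcium and sodium channel genes only Cacnb2, a subunit of the L-type calcium channel, was called (9.94 and 10.37 against 5.29 and 6.48). Without fibroblast array 2 the reticulum list held 9 calls and the channel list 3.

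Potassium channel genes were called in both directions, while 17 of those listed had the higher mean in cardiomyocytes and 6 the lower. Of 23 measured genes 2 rose, Kcnj3 and Kcnq1, the pore subunit of the slow delayed rectifier (8.57 and 7.97 against 5.20 and 5.67). Another 2 fell, Kcne4, an accessory subunit (6.53 and 5.82 in cardiomyocytes, 10.78 and 10.97 in fibroblasts), and Kcnj15, an inward rectifier (5.18 and 5.52 against 9.78 and 9.52). For Kcnj15, 2 of 3 probe sets had that sign. Potassium channel genes called outside this list were higher in cardiomyocytes. The list's median was 1.27, and 8 genes were at least 2-fold apart towards cardiomyocytes and 2 towards fibroblasts. By limma 10 of the listed genes were higher and 2 lower at unadjusted p under 0.05. Without either array numbered 2 the list held 6 increases, with 2 decreases when the cardiomyocyte array was left out and 3 when the fibroblast array was.

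Of 14 gap junction and intercalated disc genes 2 rose, the desmosomal genes Pkp2 (11.95 and 12.54 against 9.17 and 9.70) and Dsg2 (11.05 and 10.59 against 6.40 and 7.72). The list's median was 2.28, and all 14 genes had the higher mean in cardiomyocytes. The gap junction gene Gja1, at 13.33 and 13.44 against 10.96 and 11.65, had a limma adjusted p of 0.0515. Of 17 genes of the dystrophin complex and T-tubule, Sgca, an adhesion protein of the muscle membrane, was the only call (8.27 and 7.91 against 5.77 and 5.85), with a list median of 2.28. Without fibroblast array 2 the intercalated disc list held 8 calls and the dystrophin list 4, and without cardiomyocyte array 2 they held 4 and 3.

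Regulators and signals formed smaller groups. Of 27 cardiac transcription factor genes only Tox3 was called, at 9.74 and 9.79 in cardiomyocytes, 4.10 and 5.78 in fibroblasts, and 6.46 and 6.77 on the adult arrays. The cardiac homeobox gene Nkx2-5 measured 10.19 and 9.14 against 5.85 and 6.24 (limma adjusted p = 0.0565), and Gata4 measured 9.82 and 7.73 against 8.65 and 6.95, so that its groups overlapped. Among 15 natriuretic peptide and secreted factor genes only the growth factor gene Fgf1 was called (8.80 and 9.26 against 5.46 and 6.34). Of 18 cardiac splicing regulators Rbpms rose by 1.78, while Rbm20, which controls titin splicing, differed by 4.22 with a limma adjusted p of 0.0578. Without fibroblast array 2 the calls were 5 transcription factor, 2 secreted factor and 3 splicing genes, and without cardiomyocyte array 2 they were 3, 4 and 1.

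The other called increases reached beyond the lists, which held 43 of the 123. Among the 25 largest were Strip2, Clic5, a chloride intracellular channel protein, Nlrp10, Dhrs7c, a dehydrogenase of the sarcoplasmic reticulum, the transcription factor gene Camta1, Homer2, a scaffold protein, and Cap2, an actin regulator, with differences between 3.88 and 4.89. Clic5 measured 9.65 and 9.12 against 4.69 and 4.92, and all 4 of its probe sets had the same sign. The following called genes were chosen after their values were seen. Insr, the insulin receptor, rose by 2.06 and Grb14, an adaptor that binds it, by 2.61. Erbb3, a neuregulin receptor, rose by 1.94 and Rcan1, an inhibitor of calcineurin, by 2.25. Rxfp1, the relaxin receptor, measured 6.23 and 6.06 in cardiomyocytes, 3.58 and 3.40 in fibroblasts, and 3.52 and 3.47 on the adult arrays. Prdm16 and Casz1, both transcription factor genes, rose by 3.05 and 2.27, and Usp13 and Usp20, both deubiquitinases, by 3.34 and 2.20. For Casz1, 3 of 4 probe sets had that sign.

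**Figure D2:**
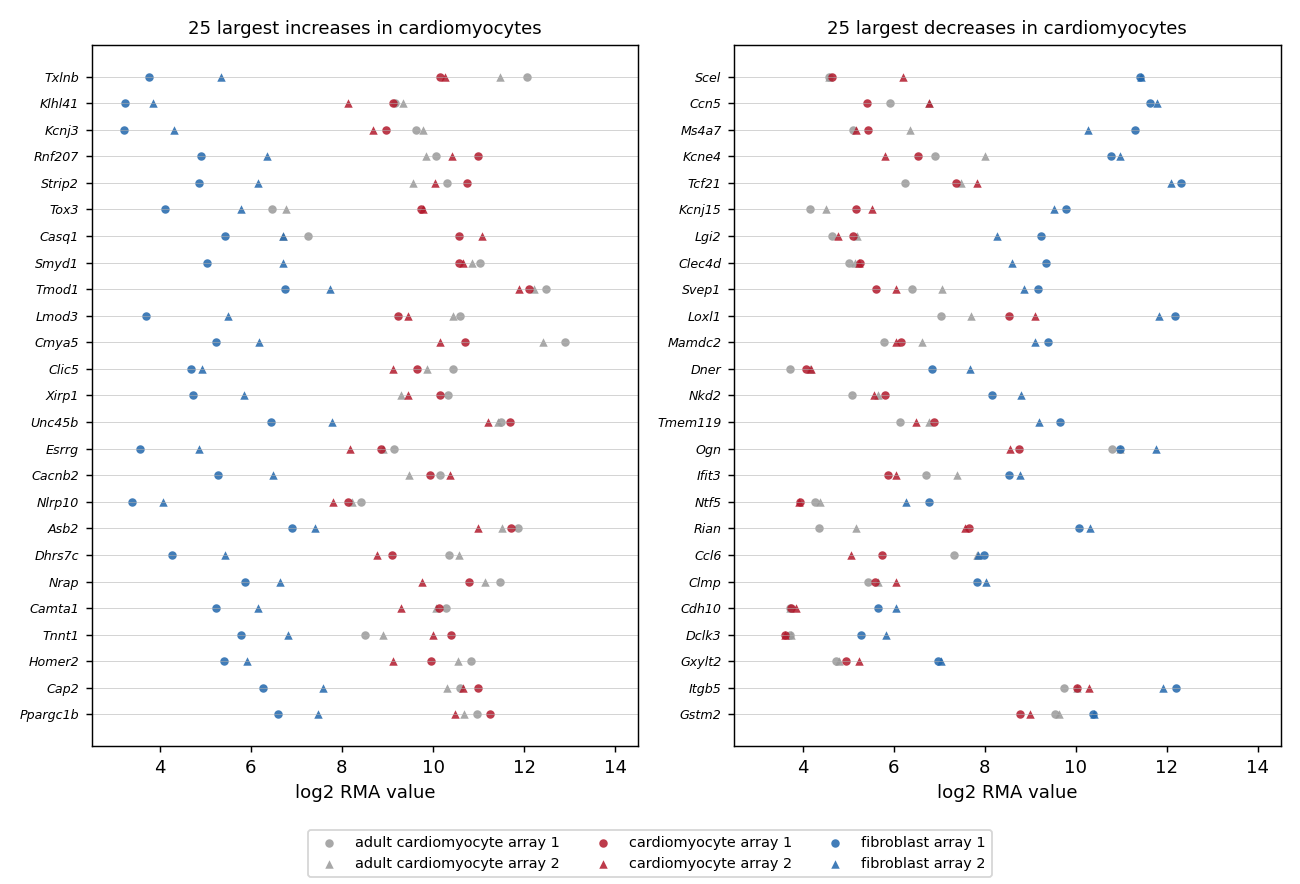
Log2 RMA values on each of the 6 arrays for the 25 genes with the largest increases (left) and the 25 with the largest decreases (right) among the genes called by limma; circles are arrays numbered 1, triangles arrays numbered 2, red neonatal cardiomyocytes, blue neonatal fibroblasts and grey adult cardiomyocytes. Red and blue points do not overlap for any gene shown. Casq1 and Tox3 on the left and Ogn and Ccl6 on the right are among the genes whose grey points lie nearer the blue ones.

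The promoters of called genes are shown because members that moved together could be compared in sequence. RefSeq promoters (GRCm38.p6) matched 87 of the 123 called increases and 19 of the 26 decreases by symbol, and the 250 bases before each start site were searched on both strands. The MEF2 motif, bound by a family of muscle transcription factors, was found for 9 of the 87 genes (10.3%), beside 2.34% of all 14452 measured genes with a promoter and 2.92% of all promoters in the table. Among the called decreases 1 of 19 held it (5.26%). Capitals mark the match in the 100 bases before the start site of 5 of these genes, printed 5′ to 3′ on the gene's strand. They lie at chr2:69670020-69670119 (+) for Klhl41, chr1:187608906-187609005 (+) for Esrrg, chr14:51914005-51914104 (−) for Ndrg2, chr3:32817526-32817625 (+) for Usp13 and chr1:75375197-75375296 (+) for Speg.
Klhl41: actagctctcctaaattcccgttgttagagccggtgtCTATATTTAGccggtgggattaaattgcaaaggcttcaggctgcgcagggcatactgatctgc
Esrrg: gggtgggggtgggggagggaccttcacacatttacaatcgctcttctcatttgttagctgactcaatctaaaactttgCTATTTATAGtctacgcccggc
Ndrg2: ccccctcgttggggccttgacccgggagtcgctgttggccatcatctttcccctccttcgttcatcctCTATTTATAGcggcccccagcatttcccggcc
Usp13: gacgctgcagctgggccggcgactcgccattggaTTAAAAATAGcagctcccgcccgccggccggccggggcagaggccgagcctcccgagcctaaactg
Speg: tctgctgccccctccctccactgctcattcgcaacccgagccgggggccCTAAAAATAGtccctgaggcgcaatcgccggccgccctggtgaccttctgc
The match began 63 bases before the start of Klhl41, 22 before Esrrg, 32 before Ndrg2, 66 before Usp13 and 51 before Speg. In 4 of the 9 genes it overlapped a TATAAA match, beside 86 of the 338 measured genes with the motif. Ndrg2, a differentiation-associated gene of the called set, measured 11.57 and 11.69 against 7.62 and 8.53.

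Over the wider set of genes at least 2-fold apart on every array, 39 of 471 with a promoter held a MEF2 motif on the cardiomyocyte side (8.28%), against 6 of 296 on the fibroblast side (2.03%). The CArG box, bound by serum response factor, was found for 3.40% and 1.69% of these genes, beside 1.43% of all genes. Among called genes only Asb2 held one, 1 of the 87 increases (1.15%), a share below the 1.43% of all genes. Its box is shown here in capitals at chr12:103356002-103356101 (−), 64 bases before the start.
Asb2: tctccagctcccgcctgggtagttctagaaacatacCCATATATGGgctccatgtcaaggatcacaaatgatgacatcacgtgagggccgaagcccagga
The interferon element ISRE (GAAA, any 2 bases, then GAAA) ran the other way, in 1.91% of the cardiomyocyte-side and 8.78% of the fibroblast-side genes, beside 3.13% of all genes. The PU.1 word GAGGAAGT, of a myeloid factor, was found in 0.849% and 4.05%, beside 2.80% of all genes, and the AP-1 word TGANTCA in 5.73% and 9.80%, beside 6.70%. The E-box CAGCTG was found in 20.6% and 17.2%, beside 14.9%. The muscle word CATTCC (M-CAT) was found in 17.4% and 18.9%, beside 13.4%, and among called genes in 11.5% of the increases and 31.6% of the decreases. The TATA word TATAAA was found for 66 of the 471 and 42 of the 296 genes (14.2% of the latter), beside 10.5%. The GATA factor word AGATAA was found in 8.28% and 9.46%, beside 8.79%, and the box written CCAAT in 39.7% and 39.5%, beside 39.4%. The ERR word TCAAGGTCA was found in 0 of the 471 genes and in 0.338% of the 296, beside 0.374%. The NRF1 palindrome was found in 1.06% and 0.338%, beside 1.43% of all genes. A match is a string of letters, not a shown binding site, and these shares carry no test.

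**Figure D3:**
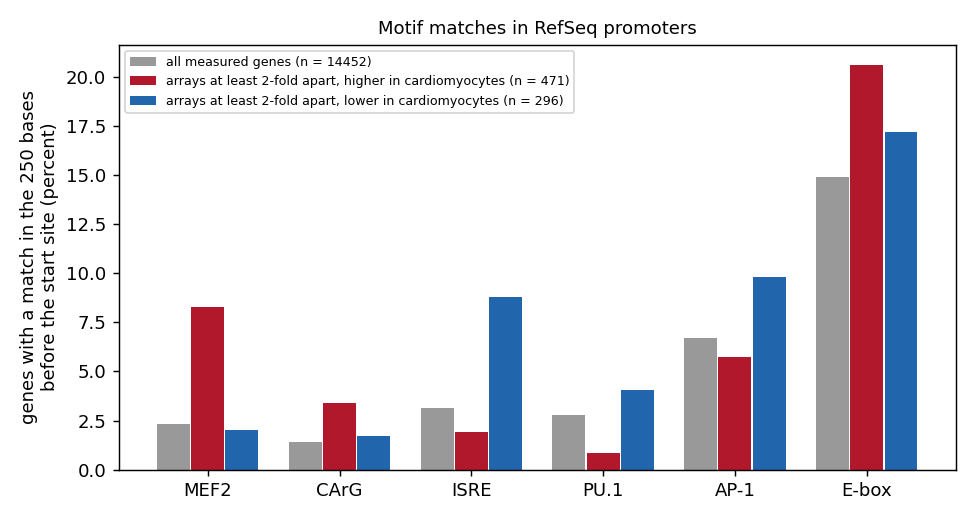
Bars give the percentage of genes with at least 1 motif match in the 250 bases before a RefSeq start site, for all measured genes (grey, n = 14452) and for genes whose arrays were at least 2-fold apart towards cardiomyocytes (red, n = 471) or towards fibroblasts (blue, n = 296). For MEF2 the red bar stands at 8.28% and the grey at 2.34%, and for the interferon element ISRE the blue bar stands at 8.78% and the grey at 3.13%.

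Mitochondrial and fuel genes ran towards cardiomyocytes in nearly every member, with smaller differences than the sarcomere genes. All 32 respiratory complex genes had the higher mean (median 1.58), of which Ndufs7, a core subunit of complex I, rose (12.26 and 12.08 against 10.39 and 10.61). All 28 genes of the TCA cycle and pyruvate use had the higher mean (median 1.73), and Mdh1, the cytosolic malate dehydrogenase, rose by 2.20, with that sign in 4 of its 5 probe sets. Of 25 fatty acid oxidation genes 24 had the higher mean (median 1.85), with 0 called by limma and 22 at unadjusted p under 0.05. These medians lie beside −0.02 over all genes and 47.4% of all genes with the higher mean. Without cardiomyocyte array 2 the calls were 5 respiratory, 10 TCA cycle and 6 fatty acid oxidation genes, and without fibroblast array 2 they were 8, 4 and 2.

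Some genes for the upkeep and control of mitochondria were called as well. Of 27 genes for coenzyme Q synthesis and mitochondrial maintenance 23 had the higher mean in cardiomyocytes and 6 were called. Mfn1 and Mfn2, which fuse the outer membranes, measured 10.67 and 10.46 against 8.37 and 8.81, and 11.36 and 11.16 against 8.85 and 8.85. For Mfn2, 1 of 2 probe sets had that sign. Coq9, of coenzyme Q synthesis, rose by 2.29, Chchd10, of the cristae, by 3.32, and Mtfp1, of mitochondrial fission, by 2.88. Of 20 PPAR, ERR and PGC-1 regulators 4 rose: the nuclear receptor genes Esrrg (8.87 and 8.17 against 3.56 and 4.86) and Ppara (8.12 and 7.60 against 4.96 and 5.50), the coactivator gene Ppargc1b (by 3.83) and Perm1 (by 3.51, 1 of 2 probe sets with that sign). Without cardiomyocyte array 2 the maintenance and regulator lists each held 4 calls, and without fibroblast array 2 they held 6 and 5. Ppargc1a, the other PGC-1 coactivator, measured 11.73 and 10.49 against 3.93 and 6.79 and was not called (limma adjusted p = 0.0754). For the 21 mitochondrial ribosome genes the median was 0.64 and limma made 0 calls, with 10 at unadjusted p under 0.05. For the 13 cytosolic ribosome genes the median was −0.31, and limma made 0 calls. At unadjusted p under 0.05 by limma were 2 of them, beside 2957 of all 18193 genes.

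Genes of sugar use had the higher mean in cardiomyocytes in most members, with single genes called. All 19 glycolysis genes had the higher mean, with 8 at least 2-fold apart and 14 at unadjusted p under 0.05 by limma. Of 16 glycogen genes 13 had the higher mean, and by limma 9 were higher and 1 lower at unadjusted p under 0.05. Ldhb, the heart form of lactate dehydrogenase, measured 13.02 and 12.12 in cardiomyocytes and 9.61 and 9.31 in fibroblasts, and was the single call among 19 glycolysis genes (median 1.21). Pygb, a glycogen phosphorylase, measured 11.99 and 11.61 against 9.34 and 9.48, and was the single call among 16 glycogen genes (median 1.15). The muscle phosphorylase Pygm differed by 4.96 with a limma adjusted p of 0.0774, and its cardiomyocyte arrays read 11.58 and 9.59. Of the creatine kinase genes, Ckm measured 13.30 and 11.06 against 5.89 and 7.83, while the brain form Ckb measured 10.78 and 10.39 against 11.40 and 11.50, and neither was called (limma adjusted p = 0.0774 and 0.318). Leaving out cardiomyocyte array 2 gave 2 glycolysis and 4 glycogen calls, and leaving out fibroblast array 2 gave 4 and 1.

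On the fibroblast side, matrix genes had the lower mean in cardiomyocytes in most members while few were called. Of 22 collagen genes 19 had that direction (median −1.43), with 0 called by limma, 12 at unadjusted p under 0.05 and 7 at least 2-fold apart. Col1a1 measured 11.07 and 9.22 in cardiomyocytes and 13.99 and 11.63 in fibroblasts, and Col3a1 12.65 and 11.84 against 14.41 and 14.06. Cardiomyocyte array 1 was the higher of its group for both collagens. Of 19 crosslinking and folding genes Loxl1, which crosslinks elastin, was the only call (8.54 and 9.12 against 12.19 and 11.83), whereas Lox measured 7.96 and 10.95 against 13.15 and 12.93 (limma adjusted p = 0.228). Among 21 matricellular genes Ccn5 was the only call, at 5.42 and 6.78 against 11.63 and 11.79. Of 21 proteoglycan and hyaluronan genes 15 had the lower mean in cardiomyocytes and 6 the higher (median −0.92). By limma 9 were lower and 2 higher at unadjusted p under 0.05. The proteoglycan gene Ogn, the only call of 21, measured 8.76 and 8.55 against 10.98 and 11.76, and 10.81 and 10.97 on the adult arrays. Without cardiomyocyte array 2 the calls were 2 collagens, 3 crosslinking and 3 matricellular genes, and without fibroblast array 2, 3 proteoglycan genes were called lower and 1 higher.

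Matrix-degrading enzymes, adhesion receptors and the cytoskeleton were lower in mean as well. Of 24 proteases and their inhibitors 23 had the lower mean in cardiomyocytes (median −1.59), with 0 called by limma, 11 at unadjusted p under 0.05 and 7 at least 2-fold apart. The stromelysin gene Mmp3 was among the widest separations, at 4.49 and 4.58 against 9.32 and 8.16 (limma adjusted p = 0.0583). Itgb5, an integrin subunit that binds vitronectin, was the only call of 22 integrin and adhesion genes (10.02 and 10.30 against 12.21 and 11.93), with that sign in all 4 probe sets. All 28 nonmuscle cytoskeleton genes had the lower mean (median −1.14), with 0 called by limma and 6 at unadjusted p under 0.05. Their median was 10.57 and 12.04 on the cardiomyocyte arrays, and 12.65 and 12.51 on the fibroblast arrays. With cardiomyocyte array 2 left out, the calls were 1 protease, 3 integrin and 2 cytoskeleton genes. These lists also hold genes of macrophages and other white blood cells. The cathepsin gene Ctss measured 9.23 and 7.48 in cardiomyocytes and 12.70 and 11.11 in fibroblasts, the integrin gene Itgam 4.27 and 3.59 against 8.63 and 4.26, and the coronin gene Coro1a 7.68 and 5.12 against 10.98 and 6.67. The macrophage list had a median difference of −3.53, and its part in these 3 lists was not tested.

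Of 23 fibroblast identity genes 19 had the lower mean in cardiomyocytes (median −1.67), and Tcf21 was the only one called, by limma adjusted p = 0.0424. The growth factor receptor gene Pdgfra, a common fibroblast marker, measured 8.06 and 8.55 against 10.46 and 10.42 (limma adjusted p = 0.248), and 6.94 and 9.18 on the adult arrays. The widest separations that were not called included Fndc1, a fibronectin domain protein (6.54 and 6.28 against 11.39 and 11.36), and Cthrc1, a collagen repeat protein (7.21 and 7.40 against 11.64 and 11.52). For both, the neonatal arrays of a group lay close together, while the adult arrays read 5.96 and 8.09 for Fndc1 and 4.05 and 5.75 for Cthrc1. Limma adjusted p was 0.0562 and 0.0521. Serpinf1, a secreted serpin, and Frzb, a secreted Wnt antagonist, separated likewise (6.24 and 7.54 against 10.97 and 11.19; 5.39 and 7.15 against 10.73 and 10.46). Without either array numbered 2, 2 fibroblast identity genes were called.

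The remaining called decreases were spread over secreted, adhesion and noncoding genes. Svep1, a large adhesion protein, measured 5.61 and 6.06 against 9.18 and 8.86, and Mamdc2 6.17 and 6.05 against 9.39 and 9.11. Dner, a Notch ligand, and Nkd2, an inhibitor of Wnt signalling, fell by 3.13 and 2.79, and Tmem119 by 2.73. Rian, a noncoding RNA of an imprinted region, measured 7.65 and 7.57 in cardiomyocytes, 10.08 and 10.31 in fibroblasts, and 4.35 and 5.17 on the adult arrays, and all 4 probe sets had the same sign. Its neighbour Meg3 measured 10.35 and 10.32 against 11.76 and 12.42 and was not called (limma adjusted p = 0.178). Scel, which encodes sciellin, fell by the most (4.66 and 6.22 against 11.40 and 11.42), but only 1 of its 2 probe sets had that sign.

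The interferon list had a negative median on both pairs of arrays, with 1 of its genes called. Of 21 interferon and antigen presentation genes 16 had the lower mean (median −1.67), 8 were at least 2-fold apart, and Ifit3, an interferon-induced antiviral gene, was called at 5.88 and 6.06 against 8.54 and 8.77. Ifit1 measured 5.78 and 4.35 against 7.84 and 8.03 (limma adjusted p = 0.195). The median difference was −1.40 between the arrays numbered 1 and −1.72 between those numbered 2. Ifit3 was the only called gene with the interferon element, on the reverse strand and with 2 matches, which begin 156 and 122 bases before the start in chr19:34583359-34583528 (+).
Ifit3: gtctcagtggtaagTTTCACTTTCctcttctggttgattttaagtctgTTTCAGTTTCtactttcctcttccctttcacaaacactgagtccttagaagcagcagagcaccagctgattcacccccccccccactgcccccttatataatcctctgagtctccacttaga
Without fibroblast array 2 no gene of this list was called by limma, and 7 had unadjusted p under 0.05.

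Macrophage markers read higher on the fibroblast arrays. Of 34 macrophage and monocyte genes 32 had the lower mean in cardiomyocytes (median −3.53), 23 were at least 2-fold apart, and Ms4a7 and the lectin gene Clec4d fell. Ms4a7 measured 5.43 and 5.17 against 11.30 and 10.28, and Clec4d 5.27 and 5.23 against 9.35 and 8.60. The summed linear level of the list was 4564 and 2381 on the cardiomyocyte arrays, 90264 on fibroblast array 1 and 18265 on fibroblast array 2. The receptor gene Csf1r measured 12.89 and 9.70 on the fibroblast arrays, and the complement gene C1qa 12.34 and 9.93, beside 6.79 and 5.04 in cardiomyocytes. Over the 6 defining markers (Csf1r, C1qa, Cd68, Adgre1, Ptprc and Lyz2) the lowest value on a fibroblast array was 7.82, for Ptprc on array 2, and the highest on a cardiomyocyte array 8.73, for Lyz2 on array 1. The part of these transcripts in the interferon, chemokine, complement and lysosome lists, whose medians were −1.67, −0.96, −1.06 and −1.29, was not tested. Without fibroblast array 2, 12 macrophage genes were called.

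Endothelial and epicardial markers differed mainly between the arrays numbered 1. The 26 endothelial genes had a median difference of 1.62, from 2.85 between those arrays and 0.46 between the arrays numbered 2, with 0 called by limma and 9 at unadjusted p under 0.05. Pecam1, an endothelial adhesion gene, measured 8.88 and 7.37 in cardiomyocytes and 5.57 and 5.69 in fibroblasts. The 20 epicardial genes had a median of −1.30, from −2.57 and −0.17, and Scel was their only call. The uroplakin gene Upk3b measured 12.08 on fibroblast array 1 and 9.19 on fibroblast array 2, beside 9.54 and 8.40 in cardiomyocytes. Of 20 smooth muscle and pericyte genes Des alone was called (median 0.89). Without cardiomyocyte array 2, 5 endothelial genes were called, and without fibroblast array 2, 3 epicardial genes.

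**Figure D4:**
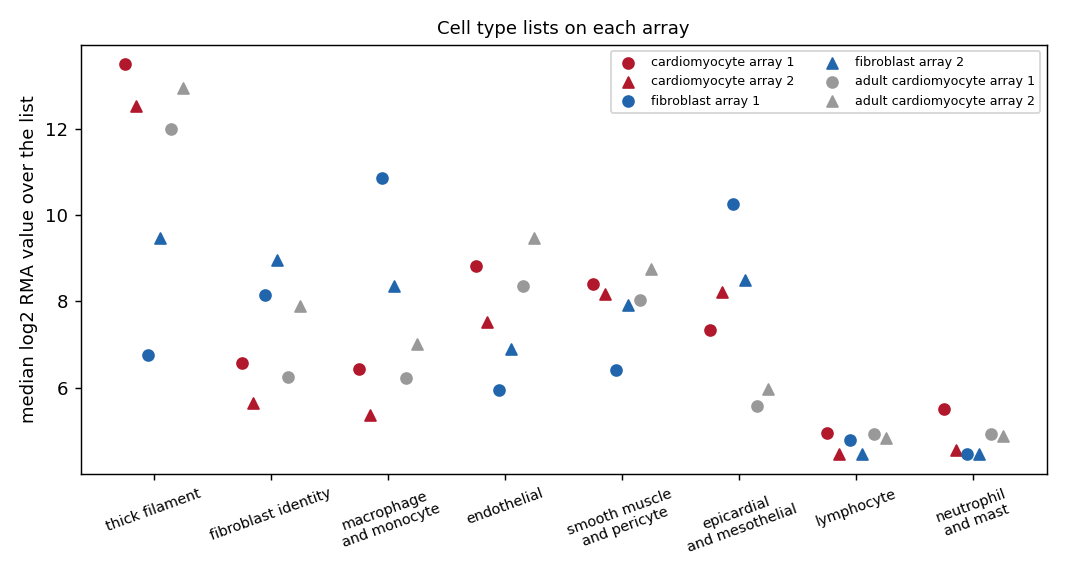
Points give the median log2 RMA value over each cell type list on each array, with circles for arrays numbered 1 and triangles for arrays numbered 2, in red for neonatal cardiomyocytes, blue for neonatal fibroblasts and grey for adult cardiomyocytes. The macrophage and monocyte median is 10.85 and 8.35 for fibroblasts and 6.43 and 5.37 for cardiomyocytes, and lymphocyte medians lie between 4.46 and 4.96 on all 6 arrays.

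Several groups had medians near 0. The 44 cell cycle genes had a median of 0.06 with 0 called by limma and 1 at unadjusted p under 0.05, and their median difference was 0.84 between the arrays numbered 1 and −0.65 between those numbered 2. The proliferation marker gene Mki67 measured 10.97 and 10.04 in cardiomyocytes and 10.47 and 10.63 in fibroblasts, beside 4.91 and 6.60 on the adult arrays. The 30 Wnt and hedgehog genes (median −0.13), the 27 semaphorin, ephrin, slit and netrin genes (0.10) and the 11 lymphocyte genes (0.04) had 0 calls in limma. At unadjusted p under 0.05 by limma were 9, 10 and 1 of them, beside 2957 of all 18193 genes. Schwann and neural genes (18, median −0.02) held 1 call each way: the neuregulin receptor gene Erbb3 rose and Lgi2 fell (5.12 and 4.79 against 9.24 and 8.26).

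Of 29 immediate early and heat shock genes 25 had the higher mean in cardiomyocytes (median 1.02, from 1.37 between the arrays numbered 1 and 0.67 between those numbered 2), and 9 were at least 2-fold apart. By limma 14 were higher and 0 lower at unadjusted p under 0.05, and the small heat shock gene Hspb3, the only call, rose by 3.68. Fos measured 12.85 and 11.01 against 8.41 and 8.11 (limma adjusted p = 0.0696). Without cardiomyocyte array 2, 7 of these stress genes were called, and without fibroblast array 2, 0 were called by limma and 11 had unadjusted p under 0.05.

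**Figure D5:**
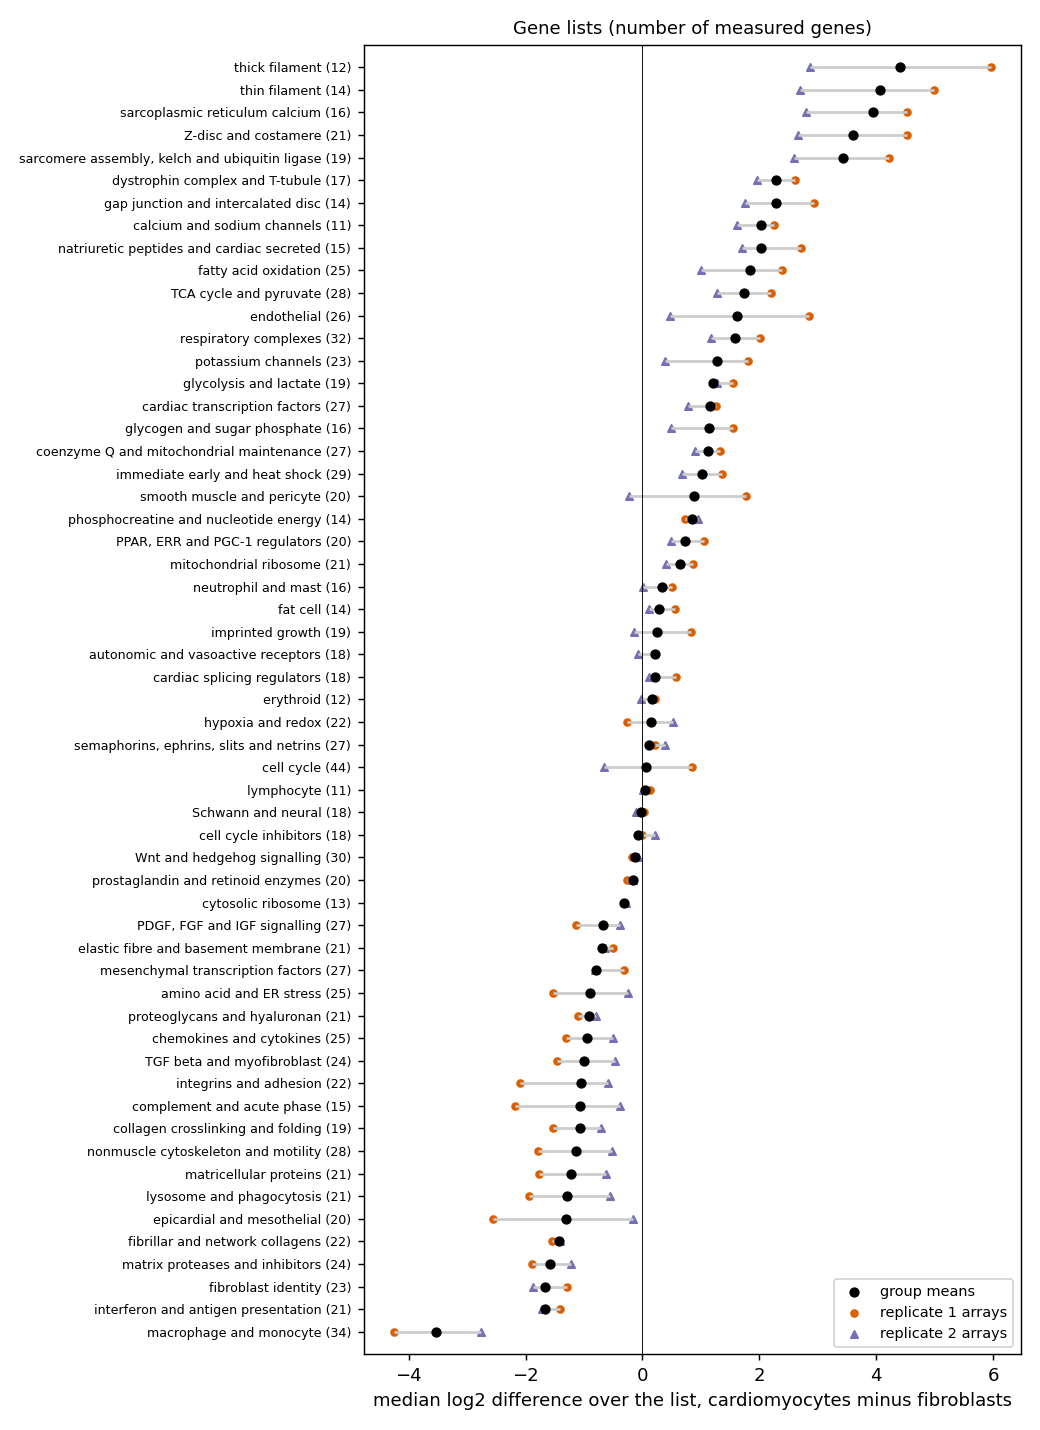
Each row is a gene list with its number of measured genes; the x axis gives the median log2 difference over the list (cardiomyocytes minus fibroblasts) from group means (black), from the replicate 1 arrays (orange circles) and from the replicate 2 arrays (violet triangles). The thick filament list is highest at 4.41, with 5.96 and 2.87 from the pairs of arrays, and the macrophage and monocyte list lowest at −3.53.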

How the data were processed

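Values are the log2 RMA values that the authors deposited, 1 per probe set, per the submitters' processing notes. The method subtracts background, equalises the arrays' distributions and combines a probe set's probes, so that differences of dim and very bright genes can be compressed. The sources used here give neither the RMA version nor whether the 6 arrays were processed jointly. RMA makes no detection call, and the number of arrays limits the precision. Of 45101 probe sets, 64 controls were left out, 34945 named 1 gene in GEO's platform annotation, 932 several and 9160 none. Where a gene had several probe sets (9010 of 18193 genes), the one brightest on average over all 6 arrays was used. Of the called genes 86 had several probe sets, and in 71 of these all had the same sign.

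All 6 arrays, as 3 group means, entered limma 3.58.1 (R 4.3.3; lmFit, eBayes; 3 residual degrees of freedom plus 2.18 from the prior), two-sided, with Benjamini-Hochberg adjustment over all genes and a threshold of 0.05. The script was tested on simulated data. The 57 gene lists hold 1154 measured genes, and 102 entries were unmeasured. The comparison, its lists and the naming rule were chosen with earlier results of these data known. The rule took the 25 largest calls and 15 widest separations each way, the first 4 measured members and up to 4 called members of each list, and marker genes. Casz1, Coq9, Coro1a, Ctss, Fbxo32, Grb14, Insr, Itgam, Mfn1, Myh8, Ndrg2, Prdm16, Rcan1, Rxfp1, Speg, Usp13 and Usp20 were named after their values were seen. Alternatives covered the grouping, arrays, probe sets, filter, scaling and variance model. Promoters came from RefSeq (GRCm38.p6), and 12 motifs were searched in the 250 bases before the start, a gene counting where any of its promoters matched.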

Additional observations from a re-analysis of the deposited data

How the results depend on the processing

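The count of 149 called genes depended on which arrays gave the spread. It stayed within 1.5 times with a further quantile normalization (131), with each array centred on its median (177) and with a trended, robust variance (216, of which 41 lower). It was 360 (286 higher, 74 lower) over genes with a higher group mean of at least 6, and 59 (43 and 16) with the mean of all probe sets per gene. Limma called 0 genes in either direction with the neonatal arrays alone (2532 at unadjusted p under 0.05), with every probe set on its own (4949), without both neonatal replicate 1 arrays (1461) and, chosen after seeing the data, without both replicate 2 arrays (3509). Leaving out 1 array at a time gave between 0 and 437 calls, 0 to 290 higher and 0 to 169 lower. With the replicate number as a block limma called 0 genes, with 3678 at unadjusted p under 0.05 and a smallest adjusted p of 0.0537. Same-numbered arrays deviated together with a correlation of 0.183 between the neonatal groups, 0.268 between the cardiomyocyte groups of both ages and 0.207 between fibroblasts and adult cardiomyocytes. The labels do not say what the numbers stand for, and each group holds 2 of them. Separated genes numbered 4048 and 4220 with no minimum gap, 210 and 85 with a gap of at least 2 log2 units, and 748 to 1264 and 541 to 1388 without 1 array. With the groups that the titles give, limma called 0 genes (232 at unadjusted p under 0.05), 10 and 15 genes were separated, and 63 of the 76 called genes named here changed sign. These were Rnf207 −1.01, Esrrg −0.9995, Strip2 −0.9954, Xirp1 −0.91, Unc45b −0.90, Nrap −0.90, Dsg2 −0.89, Camta1 −0.89, Ppargc1b −0.82, Cap2 −0.82, Tox3 −0.82, Klhl41 −0.80, Smyd1 −0.79, Hspb3 −0.79, Lmod3 −0.79, Cmya5 −0.75, Dhrs7c −0.75, Txlnb −0.73, Tnnt1 −0.72, Kcnj3 −0.68, Homer2 −0.68, Hrc −0.66, Prdm16 −0.62, Asb2 −0.61, Tmod1 −0.60, Grb14 −0.59, Kcnq1 −0.53, Ppara −0.53, Nlrp10 −0.49, Mtfp1 −0.49, Coq9 −0.48, Chchd10 −0.47, Mdh1 −0.41, Ndrg2 −0.40, Casq1 −0.39, Cacnb2 −0.38, Clic5 −0.38, Perm1 −0.35, Mfn1 −0.33, Erbb3 −0.31, Ldhb −0.30, Rbpms −0.30, Des −0.29, Pygb −0.27, Sgca −0.22, Fgf1 −0.21, Ndufs7 −0.20, Insr −0.19, Casz1 −0.16, Myh8 −0.12 and Mfn2 −0.10, and, among those lower in cardiomyocytes, Scel 0.77, Ccn5 0.60, Loxl1 0.47, Svep1 0.38, Ms4a7 0.38, Clec4d 0.35, Tcf21 0.34, Lgi2 0.32, Kcnj15 0.30, Itgb5 0.28, Mamdc2 0.079 and Tmem119 0.027. That sign follows from exchanging the replicate 1 arrays, which differed more than the replicate 2 arrays.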

Other observations

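The arrays of each neonatal group also differed from each other, and these differences belong to no comparison between cell types. The genes in this paragraph and the next were chosen after their values were seen. Between the cardiomyocyte arrays, 72 genes were at least 3 log2 units higher on array 2 and 49 on array 1. Cemip, a hyaluronan-degrading protein, measured 4.46 and 10.91 on cardiomyocyte arrays 1 and 2, against fibroblast values of 12.28 and 12.11. Col8a1 and S100a4 showed the same arrangement, with cardiomyocyte array 2 near the fibroblast values and array 1 far below. The prostaglandin synthase gene Ptgs2 measured 4.98 and 11.06 on the cardiomyocyte arrays, and 8.11 and 8.06 on the fibroblast arrays. Cardiomyocyte array 1 was the higher one for Myh7, the slow cardiac myosin (14.41 and 9.70), for the apelin receptor gene Aplnr (9.78 and 3.64) and for the neutrophil gene S100a9 (8.69 and 4.25). The 25 amino acid and ER stress genes had medians of 7.99 and 10.06 on the cardiomyocyte arrays, and 9.83 and 10.04 on the fibroblast arrays.

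Between the fibroblast arrays, 72 genes were at least 3 log2 units higher on array 1 and 33 on array 2. The side of array 1 was led by Cx3cr1, the fractalkine receptor of macrophages (11.13 and 5.24), and held the cell cycle inhibitor gene Cdkn2a (7.70 and 3.83). The side of array 2 was led by Tnni3, cardiac troponin I (6.07 and 10.86). The growth factor gene Igf2 measured 7.35 and 10.75 in fibroblasts, beside 13.50 and 10.63 in cardiomyocytes.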
